A study of Danio rerio with 8 samples.

Results

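The transcripts described here encode 4 subunits of complex IV (cytochrome c oxidase), the last enzyme of the respiratory chain, for each of which vertebrates carry more than one gene: Cox4i, Cox6a, Cox6b and Cox8. Members were chosen by symbol from a list of 9, and 8 of these symbols were found in the deposited count table. They stand on 9 of its 32520 gene rows, since 2 rows carry cox6a1 and no row carries cox6a2. The libraries came from the cardiac ventricle of adult zebrafish 7 days after cryoinjury, in which part of the ventricle is killed by freezing. One genotype was cox7a1-/-, given in the labels as Cox7a_mut, and the other was wildtype siblings, and both had the same injury. Each genotype had 4 libraries, and each library was a pool of 5 ventricles, so that differences among individual fish are averaged within a library and every cell type of the injured ventricle contributed RNA.

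Complex IV passes electrons from cytochrome c to oxygen and pumps protons across the inner mitochondrial membrane. Its catalytic core is encoded by the mitochondrial genome, and the surrounding subunits, encoded in the nucleus, stabilise the enzyme and tune its activity. In mammals several of these come as a ubiquitous form and a form of heart and skeletal muscle or of another tissue. Cox4i1 is the ubiquitous form of subunit 4, and Cox4i2, which binds at the same place, is known from lung, from vascular pericytes and from the response to low oxygen. Mammalian Cox6a1 and Cox8a are ubiquitous, Cox6a2 and Cox8b belong to heart and skeletal muscle, and Cox6b2 is known from testis. Cox7a1, the gene mutated here, is likewise the heart and muscle form of its own subunit in mammals.

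The rows of cox6a1 were told apart by position. One (ENSDARG00000022438) lies on chromosome 8 of GRCz11 at 39760258 to 39765996, and 14 of its 18 flanking rows with a symbol also flank cox6a1 in RefSeq's GRCz12tu assembly. The other (ENSDARG00000054588) lies on chromosome 3 at 31039923 to 31042102. Of its 20 flanking rows with a symbol, 16 also flank RefSeq's cox6a2 and 0 flank RefSeq's cox6a1. Both are named here by chromosome, and the chromosome 3 row is read as standing at the place of cox6a2. The remaining rows were cox4i1 (ENSDARG00000032970, chromosome 18, 30507839 to 30510241), cox4i1l (ENSDARG00000012388, chromosome 24, 28231602 to 28245872), cox4i2 (ENSDARG00000022509, chromosome 23, 18944388 to 18951148) and cox6b1 (ENSDARG00000045230, chromosome 24, 39606053 to 39610585). With them stood cox6b2 (ENSDARG00000037860, chromosome 16, 12504929 to 12512593), cox8a (ENSDARG00000095273, chromosome 21, 28496194 to 28500704) and cox8b (ENSDARG00000097209, chromosome 25, 10499642 to 10503043). No member's exons overlapped those of another gene on the same strand (0 for each of the 9 rows).

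Total counts ran from 49788133 to 53597730 in wildtype and from 41556101 to 69057989 in mutant pools, and the 9 rows together took between 0.201% and 0.331% of the counts of a pool. The targeted gene cox7a1 held 209.7 to 285.9 CPM (counts scaled to the size of the library) in wildtype pools. In mutant replicates 1 to 4 it held 59.52, 113.1, 88.46 and 193.9 CPM. Mutant replicate 4 stood apart from the other mutant pools in transcripts of the nuclear subunits of complex IV. In the mitochondrial genes of the complex it did not: they summed to 72040 CPM in it, against 68670, 69020 and 75620 CPM in mutant replicates 1 to 3. The mean log2 CPM of 14 other nuclear complex IV rows was 6.70 in it, against 5.58, 5.98 and 5.82 in mutant replicates 1 to 3 and 5.99 to 6.38 in wildtype pools. It also had fewer reads on long genes: the level of genes in the top quartile of exon length less that of genes in the bottom quartile was -0.209 log2 units, against 0.200, 0.00765 and 0.179 in mutant replicates 1 to 3 and -0.0878 to 0.0481 in wildtype pools. Markers of heart muscle cells were abundant in every pool, with 14 of 19 named genes matched and a summed level of 94400 to 110000 CPM in wildtype and 92160 to 119100 CPM in mutant pools. In a bulk sample, fewer cells of a type and less RNA per cell cannot be told apart.

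In the Cox6a family the row at the place of RefSeq's cox6a2 was the more abundant, and in the Cox8 family cox8b was. Both symbols are those of muscle forms in mammals, and other zebrafish tissues were not measured here. The levels of cox4i1 and cox4i1l were about equal and cox4i2 was scarce. Levels are given per length, as CPM per kilobase of annotated exon, where genes are compared. Over the 8 pools cox4i1l averaged 882.5 CPM per kilobase, cox4i1 831.7, the chromosome 3 cox6a1 row 727.3, cox8b 459.3, cox6b1 308.1, cox6b2 183.7, cox8a 108.8, the chromosome 8 cox6a1 row 33.05 and cox4i2 12.84. The first 2 of this order did not separate, as cox4i1l lay above cox4i1 in 4 of 8 pools, 3 of them wildtype. Every other neighbouring pair kept its order in 8 of 8 pools. The order of the Cox6b forms turned with the scale. The cox6b2 row has 1583 exon bases against 633 for cox6b1, and in raw reads cox6b2 took 60.2% of the family in wildtype pools instead of 37.7% per length.

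**Figure D1:**
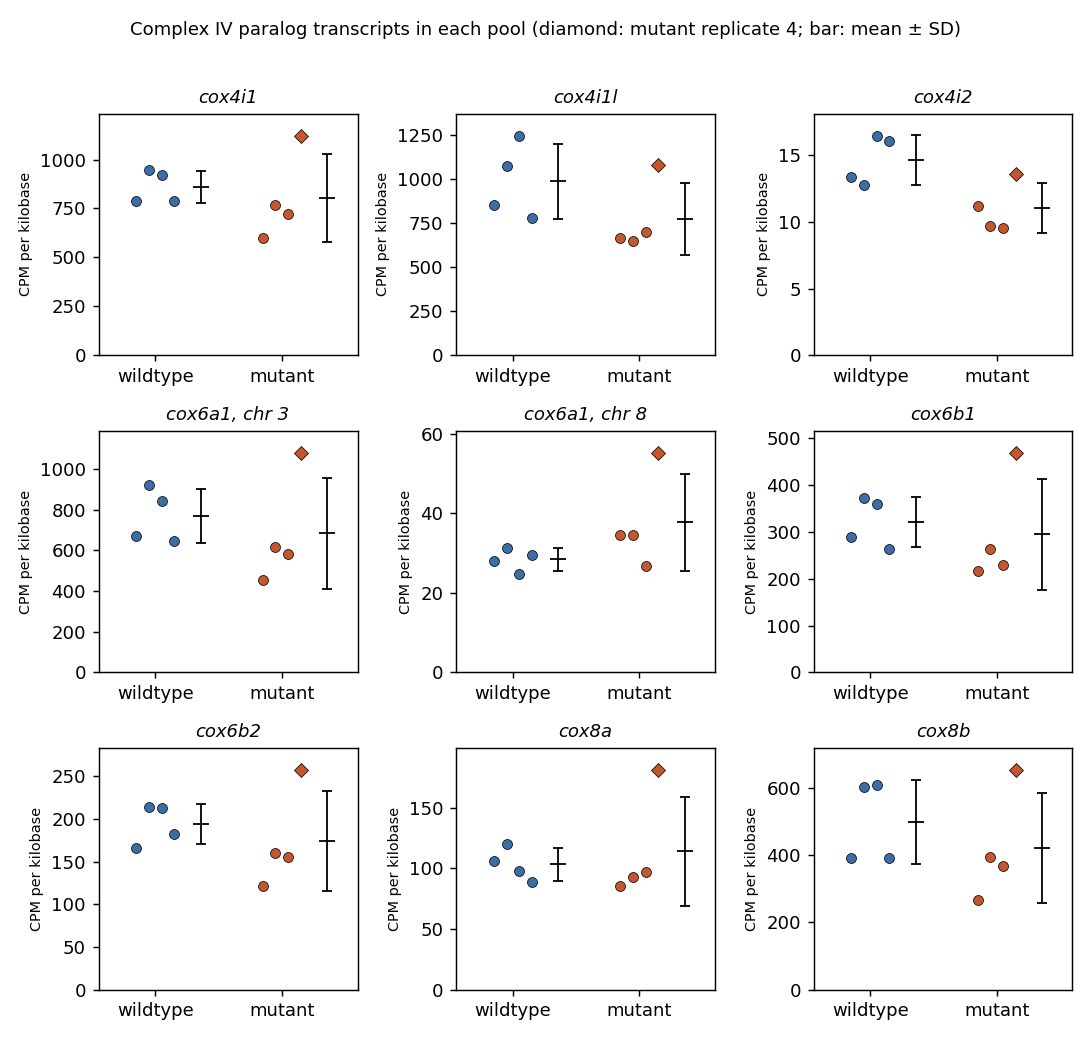
CPM per kilobase of exon (vertical axes, each from 0) of the 9 rows in 4 wildtype and 4 mutant pools, with the mean and SD beside the points. Mutant replicate 4, drawn as a diamond, holds the highest mutant value in each panel, and wildtype and mutant pools overlap in all 9.

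The share of the chromosome 8 cox6a1 row did not overlap between genotypes and was higher in mutants, and the shares of the other families overlapped between genotypes. In the Cox4i family cox4i1l took 51.5%, 52.9%, 57.2% and 49.4% of the reads per kilobase in the wildtype pools, taken from replicate 1 to 4 throughout, and 52.3%, 45.5%, 48.8% and 48.8% in the mutant pools. The means were 52.7% ± 3.30 and 48.8% ± 2.75 (SD, n = 4 each), so the genotypes overlapped. The row of cox4i2, whose mammalian counterpart responds to low oxygen, took between 0.612% and 1.01% of the family in all 8 pools. In the Cox6a family the chromosome 8 row took 4.01%, 3.29%, 2.84% and 4.37% in wildtype and 7.06%, 5.28%, 4.38% and 4.86% in mutant pools. Mutant pools were all above wildtype pools here, although wildtype replicate 4 and mutant replicate 3 nearly touched. The family holds only this row and that on chromosome 3, so the share and their ratio, tested below, show the same separation. That ratio, whose rows were paired after they were seen, did not pass the threshold after adjustment. The means were 3.63% ± 0.689 in wildtype and 5.39% ± 1.17 in mutant pools (SD, n = 4 each). In the Cox8 family cox8a took 21.3%, 16.7%, 13.9% and 18.5% in wildtype and 24.3%, 19.0%, 20.9% and 21.7% in mutant pools, with means of 17.6% ± 3.11 and 21.5% ± 2.19 (SD, n = 4 each). These overlapped, since wildtype replicate 1 lay above mutant replicates 2 and 3. For the Cox6b family cox6b2 held 35.4% to 40.8% over all pools, with means of 37.7% ± 2.09 in wildtype and 37.4% ± 2.24 in mutant pools (SD, n = 4 each).

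**Figure D2:**
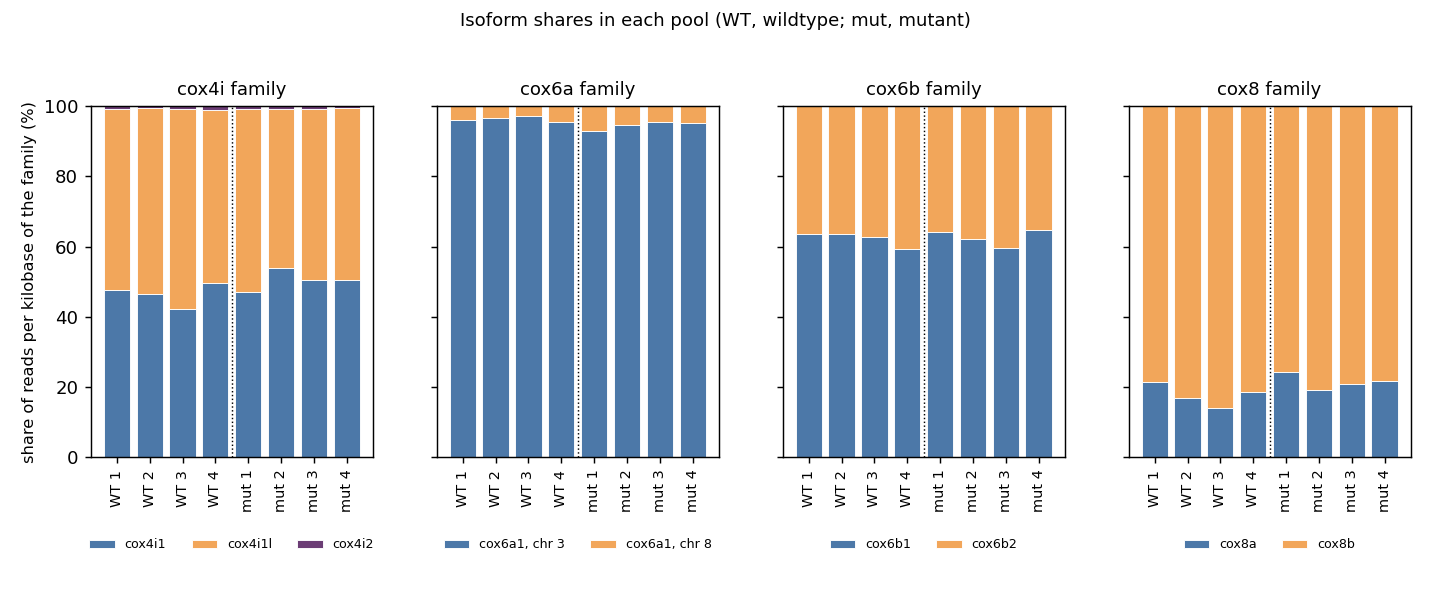
Share of each form in the reads per kilobase of its family, in percent (vertical axis), for wildtype (WT) and mutant (mut) replicates 1 to 4. The chromosome 8 cox6a1 row takes 2.84% to 4.37% in wildtype and 4.38% to 7.06% in mutant pools. The mean share of cox6b2 is nearly the same in wildtype (37.7%) and mutant pools (37.4%), with single pools from 35.4% to 40.8%.

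The ratio of paralogs within a pool does not depend on how the libraries are scaled, and it was tested between genotypes for 5 pairs. In the Cox6a family the chromosome 3 row was 23.9, 29.4, 34.2 and 21.9 times as abundant per kilobase as the chromosome 8 row in wildtype pools, and 13.2, 17.9, 21.8 and 19.6 times in mutant pools. Every mutant pool lay below every wildtype pool. The mean log2 ratio was 4.75 ± 0.290 in wildtype and 4.16 ± 0.313 in mutant pools (SD, n = 4 each), a difference of -0.60 ± 0.213 (SE), or 0.662-fold. By exact permutation, two-sided, p was 0.0286, the lower limit with 4 pools in each genotype, and it was 0.143 after Benjamini-Hochberg adjustment over the 5 ratios, which is not past the threshold of 0.05. With medians in place of means the difference was -0.50 and the exact permutation p was 0.0571. With any 1 pool left out the difference stayed between -0.70 and -0.45, where 3 pools against 4 cannot go below p = 0.0571 in the exact test. The largest ratios were those of wildtype replicates 2 and 3, and the smallest that of mutant replicate 1. The marker sum given next was picked out of those of several cell types after the values were known, and with 4 pools an order is easily matched. The summed level of 12 marker rows of fibroblasts and epicardium ran opposite to the Cox6a ratio within each genotype. It was 6347, 5889, 3724 and 7322 CPM in wildtype pools, where the ratio was largest at replicate 3 and smallest at replicate 4, and 7655, 6426, 5416 and 5669 CPM in mutant pools, where it was largest at replicate 3 and smallest at replicate 1. In both genotypes the order of the 4 pools by this sum was the reverse of their order by the ratio. The mean of the sum was 5820 CPM in wildtype and 6292 CPM in mutant pools. Abundant genes of the extracellular matrix weigh most in it: a row of FN1 averaged 1432 CPM in wildtype pools and TCF21 14.37 CPM. Of the 12 rows 8 had positive log2 fold changes and 4 negative ones, the latter TCF21, TBX18, WT1 and PDGFRA. The heart muscle sum ran in the same direction as the ratio within each genotype, though not in its exact order. Between genotypes it did not, as its mean was 103000 CPM in wildtype and 105600 CPM in mutant pools while the ratio was lower in mutants. It was 94400, 106500, 110000 and 101200 CPM in wildtype and 92160, 96180, 115100 and 119100 CPM in mutant pools. The part of either sum in the difference between genotypes was not tested.

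For Cox8, cox8b exceeded cox8a by 3.70, 5.00, 6.20 and 4.39 times in wildtype and by 3.11, 4.26, 3.78 and 3.60 times in mutant pools. Wildtype replicate 1 lay within the mutant range, so the genotypes overlapped. The log2 ratio differed by -0.37 ± 0.183 (SE; exact permutation p = 0.0857, adjusted over the 5 ratios 0.214). The ratio of cox4i1l to cox4i1 was 1.08, 1.14, 1.36 and 0.995 in wildtype and 1.12, 0.847, 0.966 and 0.963 in mutant pools. Here too the pools overlapped, with a log2 difference of -0.23 ± 0.125 (SE; exact permutation p = 0.143, adjusted 0.238). The ratio of cox4i2 to cox4i1 stood at 0.0169, 0.0135, 0.0179 and 0.0204 in wildtype and 0.0187, 0.0127, 0.0132 and 0.0121 in mutant pools. Mutant replicate 1 lay among the wildtype pools while the remaining mutant pools lay below them, and the log2 difference was -0.29 ± 0.190 (SE; exact permutation p = 0.200, adjusted 0.250). The ratio of cox6b2 to cox6b1 ranged from 0.573 to 0.689 in wildtype and from 0.549 to 0.677 in mutant pools and differed by -0.021 ± 0.0935 log2 units (SE; exact permutation p = 0.771, adjusted 0.771). None of the 5 ratios passed the threshold after adjustment.

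**Figure D3:**
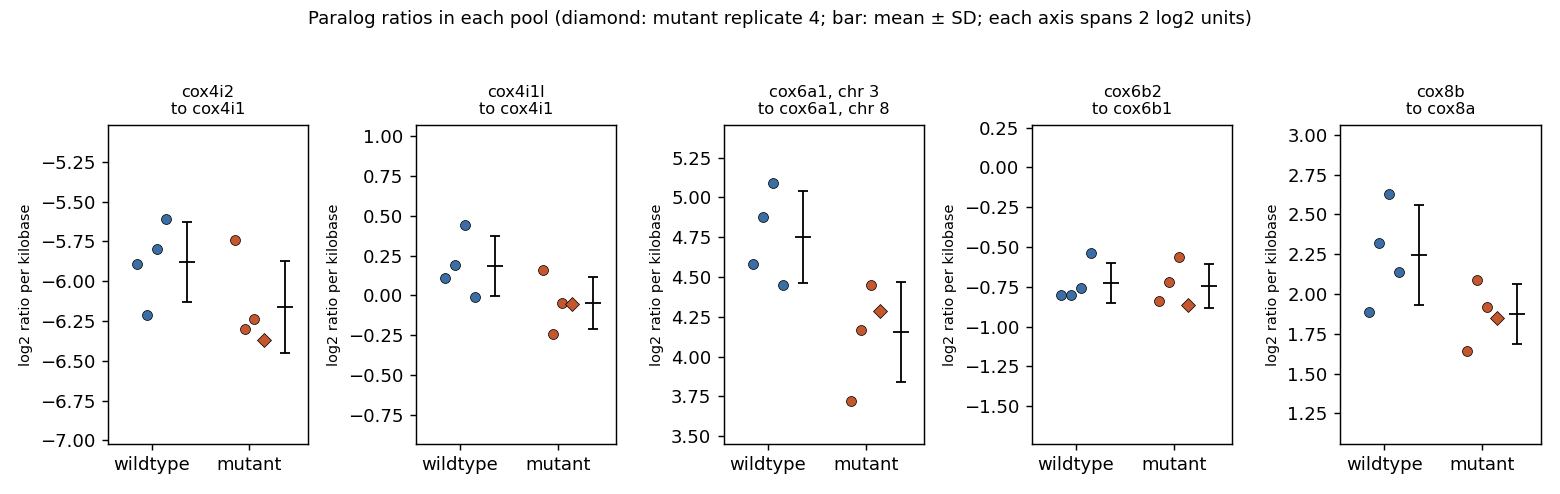
Log2 ratio of reads per kilobase of paralogs (vertical axes, each spanning 2 log2 units but set at different levels) in 4 wildtype and 4 mutant pools, with the mean and SD. The genotypes are separated only in the panel of the chromosome 3 to the chromosome 8 cox6a1 row, by 21.9 against 21.8 on the linear scale at the nearest pools.

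By genotype, the level of no member row passed edgeR's quasi-likelihood test across the 17949 genes that entered it. All 9 rows were tested, and 0 were called at an adjusted p under 0.05. The share called among all tested genes was 2.02%, with 1.14% higher and 0.880% lower in mutants. DESeq2 called 0 of the 9 rows, against 6.10% of all genes, and limma-voom called 0, against 2.06%. At an unadjusted p under 0.05 edgeR had 1 member, against 18.0% of all genes, DESeq2 had 2, against 19.1%, and limma-voom had 1, against 18.3%. In 0 of the 9 rows were the genotypes without overlap in CPM, against 11.7% of all genes. The median log2 fold change of mutant over wildtype was -0.16 over the 9 rows and 0.00 (0.00295) over all tested genes, and 7 of the 9 values were negative.

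Among the Cox4i forms, cox4i2 held 12.88, 12.32, 15.9 and 15.5 CPM in wildtype and 10.82, 9.363, 9.213 and 13.11 CPM in mutant pools. Mutant replicates 1 to 3 lay below every wildtype pool, and mutant replicate 4 lay among them. The log2 fold change was -0.41 ± 0.152 (SE), with an edgeR adjusted p of 0.187. For cox4i1l the values were 666.9, 841.7, 977 and 612 CPM in wildtype and 522.9, 508, 546.2 and 846.4 CPM in mutant pools. The same 3 mutant pools were the lowest of the 8, and replicate 4 was higher than wildtype replicates 1, 2 and 4. Its log2 fold change was -0.35 ± 0.200 (SE; edgeR adjusted p = 0.386). The cox4i1 row held 560, 669.9, 651.6 and 557.8 CPM in wildtype and 425, 543.9, 512.8 and 796.5 CPM in mutant pools, and mutant replicate 4 was the highest of all 8 (-0.10 ± 0.181, SE; edgeR adjusted p = 0.825).

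Among the Cox6a rows, that on chromosome 8 held 30.29, 33.81, 26.67 and 31.94 CPM in wildtype and 37.17, 37.25, 28.83 and 59.62 CPM in mutant pools. Mutant replicates 1, 2 and 4 were above every wildtype pool and replicate 3 was not. The log2 fold change was 0.41 ± 0.193 (SE; edgeR adjusted p = 0.293). The chromosome 3 row held 479.6, 656.7, 602.6 and 462 CPM in wildtype and 323.6, 441.9, 415.7 and 772.1 CPM in mutant pools. Mutant replicates 1 to 3 were below every wildtype pool and replicate 4 was above every one (-0.17 ± 0.240, SE; edgeR adjusted p = 0.764).

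In the Cox6b and Cox8 rows, too, mutant replicate 4 was the highest mutant pool. Levels of cox6b1 were 183.5, 235.9, 228 and 166.9 CPM in wildtype and 136.7, 167.1, 145.6 and 296.8 CPM in mutant pools, and those of cox6b2 were 263.1, 338.5, 337.5 and 287.7 CPM and 191.5, 254.2, 246.5 and 407.5 CPM. For cox8b they were 235.1, 361.6, 364.4 and 234.3 CPM in wildtype and 160.3, 236.7, 220.6 and 391.6 CPM in mutant pools. In each of these 3 rows mutant replicate 4 was the highest of the 8 pools. In cox8a it was as well, at 108.6 CPM against 51.38, 55.51 and 58.22 CPM in the other mutant pools and 53.23 to 72.17 CPM in wildtype. The log2 fold changes were -0.13 ± 0.234 for cox6b1, -0.16 ± 0.206 for cox6b2, 0.15 ± 0.220 for cox8a and -0.24 ± 0.256 for cox8b (SE), with edgeR adjusted p-values of 0.828, 0.747, 0.783 and 0.673. The SD of log2 CPM among mutant pools had a median of 0.454 over the 9 rows, against 0.273 over all tested genes, and among wildtype pools 0.185 against 0.258.

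Without mutant replicate 4, 8 of the 9 rows had negative log2 fold changes, and still none was called. The log2 fold changes were then -0.56 ± 0.160 for cox4i1l, -0.54 ± 0.204 for cox8b, -0.53 ± 0.143 for cox4i2, -0.48 ± 0.160 for the chromosome 3 cox6a1 row, -0.44 ± 0.147 for cox6b1, -0.41 ± 0.141 for cox6b2 and -0.30 ± 0.125 for cox4i1 (SE). They were -0.17 ± 0.123 for cox8a and 0.17 ± 0.129 for the chromosome 8 cox6a1 row. The smallest edgeR adjusted p was 0.0819, that of cox4i2, and 0 of the 9 rows were called, against 2.07% of all genes tested in these 7 pools. At an unadjusted p under 0.05 there were 7 of 9, against 20.1% of all genes. The other nuclear complex IV rows were lower too without this pool. Over 15 such rows outside the 4 families, cox7a1 among them, the median log2 fold change was -0.35, against -0.44 over the 9 rows. It was -0.23 over the 15 rows with each library's trend with exon length removed as well. The 3 mutant pools did not overlap with wildtype in 5 rows, namely cox4i1, cox4i1l, cox4i2, the chromosome 3 cox6a1 row and cox6b2, all lower, against 19.6% of all genes. This pool was left out because it stood apart in the values given above, a choice made after they were seen. It held the highest mutant value in each of the 9 rows, so leaving it out lowered the mutant mean in every one. All genes were not picked by this pool, so their shares are no like comparison for the 9 rows. When each library's trend with exon length was also removed, the values lay closer to 0: the median of the 9 rows was -0.32 instead of -0.44, 5 of 9 had an unadjusted p under 0.05, against 18.7% of all genes, and 0 were called, against 1.89% of all genes. The chromosome 8 cox6a1 row then stood at 0.30 ± 0.126 (SE; edgeR adjusted p = 0.232). With mutant replicate 1 left out in place of replicate 4, the median of the 9 rows was -0.029. At an unadjusted edgeR p under 0.05 there was then 1 row, against 15.4% of all genes.

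**Figure D4:**
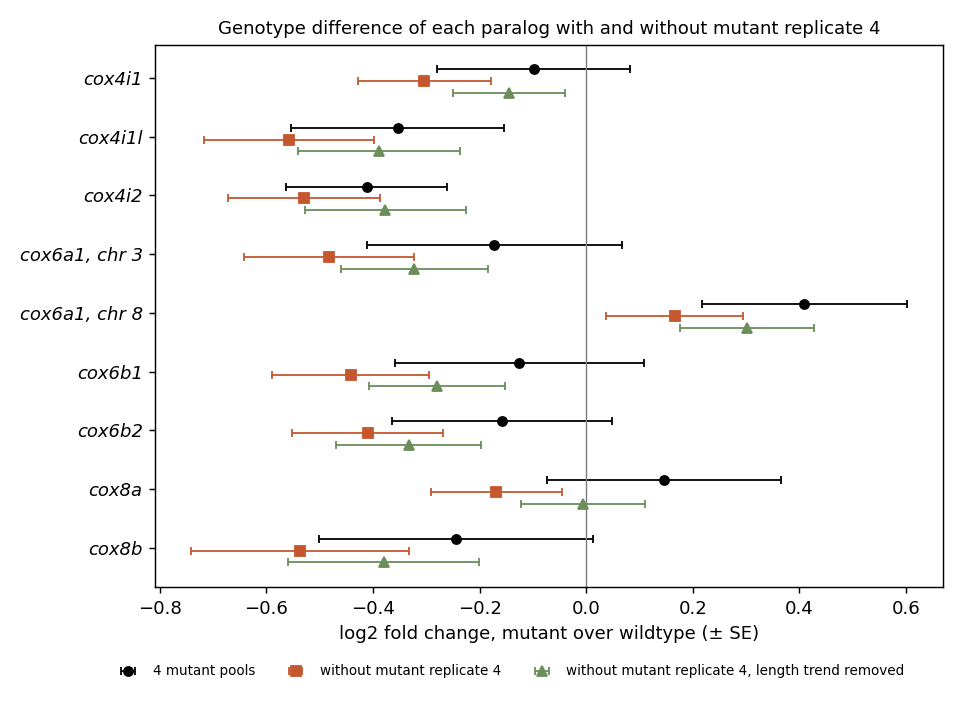
Log2 fold change of mutant over wildtype with its SE (horizontal axis) for each row, from all 8 pools, without mutant replicate 4, and without that pool after the trend with exon length was removed. Without the pool, which was the highest mutant pool in each row, 8 of the 9 rows lie below 0. The chromosome 8 cox6a1 row lies above 0 in all 3 fits.

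Relative to the rest of complex IV, the genotypes were separated in 1 of the 9 rows, the chromosome 8 cox6a1 row, and which Cox6a row had the smallest p depended on the reference. Each row's log2 CPM was set against the mean of the 14 other nuclear complex IV rows in the same pool, with cox7a1 left out of these. The 14 rows include NDUFA4L2, a scarce relative of the subunit NDUFA4, at 0.8044 CPM in wildtype and 0.3253 CPM in mutant pools. Its log2 fold change of -1.29 counts in the mean as much as that of any other row. The mean was not taken without it. On this scale the chromosome 8 cox6a1 row stood at -1.10, -1.18, -1.65 and -0.989 in wildtype and -0.361, -0.754, -0.965 and -0.798 in mutant pools. Every mutant pool was above every wildtype pool, the nearest being at -0.965 and -0.989. The difference was 0.51 ± 0.193 log2 units (SE), with a two-sided exact permutation p of 0.0286, the smallest possible and not adjusted for the 9 rows tested in this way. With no overlap in 1 of 9 rows, the share among all tested genes was 2.53%. The same reference was taken from every gene, which adds its spread (SD 0.481 among mutant pools) to genes that do not vary with complex IV. The share is thus no like comparison for the 9 rows, and in CPM it was 11.7%. With the median of the 14 rows as the reference the difference was 0.47 and the exact permutation p was 0.114. In contrast, the chromosome 3 row held 2.88, 3.10, 2.85 and 2.86 in wildtype and 2.76, 2.81, 2.88 and 2.90 in mutant pools. Mutant replicate 4, the highest pool in CPM, was here within the wildtype range, and the difference was -0.086 ± 0.0664 (SE; exact permutation p = 0.286). Against the median of the 14 rows it was -0.12 with an exact permutation p of 0.0286.

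On the same relative scale cox8a differed by 0.23 ± 0.124, cox8b by -0.14 ± 0.105, cox4i1l by -0.21 ± 0.121 and cox4i2 by -0.27 ± 0.216 log2 units (SE). The exact permutation p-values were 0.114, 0.286, 0.171 and 0.257. For cox4i1, cox6b1 and cox6b2 the differences were 0.015 ± 0.0677, -0.037 ± 0.0609 and -0.058 ± 0.0548 (SE). Their exact permutation p-values were 0.686, 0.571 and 0.200. Their SD among mutant pools was 0.109, 0.0751 and 0.0681 log2 units on this scale and 0.380, 0.510 and 0.454 for log2 CPM itself.

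The other subunits of the complex gave the setting for these values. Of 15 nuclear complex IV rows outside the 4 families, 0 passed edgeR's test, against 2.02% of all genes. At an unadjusted p under 0.05 there were 2, against 18.0% of all genes, and the median log2 fold change was -0.05. DESeq2 called 1 (cox7a1) and limma-voom 0. Without mutant replicate 4 edgeR called cox7a1, as it did from all pools with the length trend removed or with no filter. The median of the 15 rows without that pool was -0.35. The 2 rows were cox7a1 itself (-1.11 ± 0.295, SE; edgeR adjusted p = 0.0776) and NDUFA4L2, a relative of the subunit NDUFA4 that is induced by low oxygen in mammals, at 0.8044 CPM in wildtype and 0.3253 CPM in mutant pools (-1.29 ± 0.567, SE; edgeR adjusted p = 0.260). NDUFA4 itself followed by p (-0.28 ± 0.233, SE). The mitochondrial genes of the catalytic core, MT-CO1, MT-CO2 and MT-CO3, had log2 fold changes of -0.05, -0.22 and -0.17, and 0 of 3 were called by edgeR, DESeq2 or limma-voom, with 0 at an unadjusted p under 0.05 by edgeR.

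Genes tied to the switch between the Cox4i forms and to the response to low oxygen were taken as a list, of which 27 rows were tested. By edgeR, 1 rose, LONP1, a mitochondrial protease that degrades Cox4i1 at low oxygen in mammalian cells, and 1 fell, hif1aa, a hypoxia-inducible factor subunit, and 25 were not called, against 2.02% called of all genes. At an unadjusted p under 0.05 there were 7 of the 27, against 18.0%. LONP1 averaged 27.00 CPM in wildtype and 43.53 in mutant pools (0.69 ± 0.135, SE; edgeR adjusted p = 0.0285), and hif1aa 53.13 and 32.25 CPM (-0.72 ± 0.160, SE; edgeR adjusted p = 0.0457). BNIP3, a mitophagy receptor induced by low oxygen, was next by p at 24.19 and 15.80 CPM (edgeR adjusted p = 0.0818), and DESeq2 called it as well. The more abundant row HIF1A went the other way from hif1aa and was not called. It averaged 246 CPM in wildtype and 306.7 in mutant pools (0.32 ± 0.118, SE; edgeR adjusted p = 0.187). With 1 pool left out, the edgeR adjusted p of LONP1 ran from 0.0416 to 0.0990 and that of hif1aa from 0.0252 to 0.132. Without mutant replicate 4 these were 0.0449 and 0.0695. With library totals alone neither was called (0.0510 and 0.0789). DESeq2 and limma-voom called both. The median log2 fold change of the list was 0.00 (-0.00219). Among 16 tested regulators of heart and oxidative muscle genes, 1 rose by edgeR, a row of MEF2C (ENSDARG00000029764), a transcription factor of muscle (106.9 CPM in wildtype and 188.4 in mutant pools; edgeR adjusted p = 0.0494). Its edgeR adjusted p ran from 0.0468 to 0.112 with 1 pool left out and was 0.0510 with DESeq2's size factors, 0.0650 with library totals alone and 0.0611 with the length trend removed, and a second MEF2C row was at -0.06 log2 units. MEF2A and TBX5, transcription factors of heart muscle, followed by p with log2 fold changes of 0.47 ± 0.118 and -0.68 ± 0.194 (SE; edgeR adjusted p = 0.0695 and 0.0984). DESeq2 called all 3, MEF2A higher and TBX5 lower, and limma-voom called MEF2C. In this list 4 of the 16 rows had an unadjusted p under 0.05 by edgeR, against 18.0% of all genes, and the median was -0.08.

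Markers of the cell types in a ventricle pool were read beside the isoform values. For pericytes and smooth muscle, the cells in which Cox4i2 is known in mammals, 13 of 13 named genes were matched and the summed level was 863.6 to 1015 CPM in wildtype and 876.6 to 970.5 CPM in mutant pools. Of 13 tested rows of this list 1 rose by edgeR, CSPG4, a proteoglycan of pericytes (27.00 CPM in wildtype and 49.10 in mutant pools; edgeR adjusted p = 0.0238, 0.0133 to 0.0821 with 1 pool left out, and 0.0650 with library totals alone). The remaining 12 were not called by edgeR, and CNN1 and a row of TAGLN, both of smooth muscle, were next by p (edgeR adjusted p = 0.0589 and 0.248). DESeq2 and limma-voom called CNN1 too, as higher in mutants, and so did edgeR with the length trend removed. The list was split, with 7 rows positive and 6 negative. ABCC9 and NDUFA4L2 were lower in mutants, at unadjusted edgeR p-values of 0.0418 and 0.0433. A second TAGLN row was at -0.45 log2 units, against 0.29 for the first. Of 15 tested heart muscle rows 1 rose by edgeR, ATP2A2 (ENSDARG00000005122), a calcium pump (51.37 CPM in wildtype and 88.48 in mutant pools; edgeR adjusted p = 0.0348, 0.0144 to 0.109 with 1 pool left out, and 0.0650 with library totals alone). MYH6 and nppb followed by p (edgeR adjusted p = 0.0566 and 0.178). MYH6 was called as higher by DESeq2, and by edgeR without mutant replicate 4 or with the length trend removed. A second myh6 row was not called by edgeR (0.25 ± 0.353, SE; edgeR adjusted p = 0.763). The far more abundant calcium pump row atp2a2a was not called. It averaged 4202 CPM in wildtype and 4828 in mutant pools (0.20 ± 0.1495, SE; edgeR adjusted p = 0.525). At an unadjusted p under 0.05 by edgeR there were 5 of the 13 pericyte and smooth muscle rows and 4 of the 15 heart muscle rows, against 18.0% of all genes. The share of all genes called by edgeR was 2.02%. In the fibroblast and epicardium list 0 of 12 were called, in the endothelial list 0 of 6, in the leukocyte list 0 of 6 and in the erythrocyte list 0 of 4, by edgeR as by DESeq2 and limma-voom. In these lists 0, 0, 0 and 2 rows had an unadjusted p under 0.05 by edgeR. The 4 erythrocyte rows had a median log2 fold change of 0.77, and those of fibroblast and epicardium, endothelium and leukocytes had 0.08, -0.05 and -0.03. Summed levels ran from 3724 to 7322 CPM in wildtype and 5416 to 7655 in mutant pools for fibroblast and epicardium, from 1115 to 1416 and 1042 to 1345 for endothelium, from 195.8 to 292.1 and 194.4 to 281.2 for leukocytes and from 545.8 to 931.9 and 620.8 to 1715 for erythrocytes. The genotypes overlapped in each of these sums.

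The genes whose profile was most like that of 1 form of each family were sought, the form with the highest mean CPM per kilobase. In the Cox4i family that form, cox4i1l, was about equal to cox4i1, and in the Cox6b family the order turned with the scale. Profiles over the 8 pools were compared by the root mean square difference of log2 CPM, each centred on its own mean. The nearest genes were taken from 12858 genes with a symbol and an average log2 CPM of at least 1. For the chromosome 3 cox6a1 row, whose log2 CPM ranged over 1.25 units, these were PGAM2, a muscle enzyme of glycolysis, and NDUFB2 and NDUFA8, subunits of complex I, with differences of 0.0404, 0.0445 and 0.0484. For cox8b, with a range of 1.29, they were NDUFB6 of complex I, UQCRQ of complex III and mrps18c of the mitochondrial ribosome (0.0626, 0.0742 and 0.0828). For cox6b1, with a range of 1.12, they were COA1, RNF7 and cox5aa, the last a subunit of complex IV (0.0572, 0.0576 and 0.0652). The nearest to cox4i1l, with a range of 0.943, were ulk1a, a kinase of autophagy, and the clone-named si:ch73-299h12.6 and si:dkey-83f18.14 (0.0706, 0.0914 and 0.0965). All of these values come from the same 8 libraries, and genes of like length and level share the pools' technical differences.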

How the data were processed

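RNA was sequenced from 8 pools of zebrafish ventricles, 4 per genotype. Per the labels' protocols the library kit was directional. The deposited table holds raw counts per gene and the exon length. Per the file headers it was made by featureCounts 2.0.3 from exons of Ensembl 109 (GRCz11) with strand setting 2. The submitters' processing notes also name STAR, fastp, FastQC and MultiQC, without versions. No option to count multimapping reads stands in the command, so reads that fit several paralogs equally well are lost and paralog levels are uncertain to that extent. The exon length is that of all annotated exons together. No sequence was printed, and no column of values was left unused (0).

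Columns were matched to samples by the library names in the labels, and replicate numbers are those of the titles. Symbols came from a table that named 29201 of 32520 rows. The members and gene lists were chosen with earlier results of these data known. Genes passing filterByExpr (minimum count 10) were tested with edgeR 4.0.16 (R 4.3.3), TMM factors and genotype as the only term, with Benjamini-Hochberg adjustment over all 17949 genes and a threshold of 0.05. The standard error is the log2 fold change divided by the square root of F, and log2 CPM has a prior count of 2. Ratios had 0.5 added to each count and were tested, as were relative levels, with two-sided exact permutation tests (scipy 1.17.1), whose smallest p is 0.0286. The Cox6a pair was set by chromosome after the rows were seen, since no row carries cox6a2. Of each list, counts and the 3 genes with the smallest p are given, and for some of these a further row of the same gene or a close relative. In the marker lists some further rows are named, for their direction or their weight in a sum. Alternatives were other scalings, filters, DESeq2 1.42.0, limma-voom (limma 3.58.1), a replicate block, a length trend removed by lowess (span 0.3) and each pool left out. P-values set a genotype difference against the variation between pools.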

Additional observations from a re-analysis of the deposited data

Results flagged for a closer look

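Within each genotype of 4 pools, the highest and lowest values were tested for standing apart from the rest by Dixon's ratio, the gap to the nearest pool over the whole range, over 64 groups of levels, shares, ratios and relative levels, and 4 were found, where chance gives about 1 in 20. In mutant replicate 4, cox4i1l at 846.4 CPM and cox8a at 108.6 CPM stood above the other mutant pools (Dixon's ratios 0.887 and 0.880). Relative to the other complex IV rows, cox4i1 was low in wildtype replicate 3 at 2.96 log2 units (0.833) and the chromosome 3 cox6a1 row was high in wildtype replicate 2 at 3.10 (0.880).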

How the results depend on the processing

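In each alternative fit, none of the 9 rows was called. Over all genes, the counts of 205 higher and 158 lower became 60 and 97 with library totals alone, 126 and 84 with a replicate block, 614 and 481 with DESeq2, and 29 to 273 and 37 to 200 with 1 pool left out, the fewest without mutant replicate 3 and wildtype replicate 3. Replicate numbers share no stated source, and same-numbered pools deviated together only for number 1 (r = 0.246, against -0.071, 0.0365 and -0.066). With the replicate block the listed genes LONP1, MEF2C, CSPG4 and ATP2A2 were no longer called (edgeR adjusted p = 0.0623, 0.0539, 0.0522 and 0.0722), hif1aa stayed called (0.0432), and hif1al and CNN1 were called. The Cox6a log2 ratio (-0.60) became -0.50 with medians (exact permutation p = 0.0571) and kept its value of -0.595 in a paired sign-flip test over the replicate block, which cannot go below p = 0.125. With 1 pool left out it lay between -0.695 and -0.450, where no exact p can reach 0.05. Small differences turned sign. The cox6b2 to cox6b1 ratio became 0.0022 with medians and -0.0818 to 0.0416 with 1 pool left out. The log2 fold change of cox4i1 lay between -0.304 and 0.0080 with 1 pool left out, and that of cox8a between -0.168 and 0.250, or -0.0056 without mutant replicate 4 and with the length trend removed. The relative level of cox4i1 became -0.0219 against the median reference and -0.0246 to 0.0675 with 1 pool left out, and that of cox6b1 -0.0683 to 0.0066. The causes were not tested. With 419 to 812 counts per pool, cox4i2 was the row with the least depth.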
